A study of Mus musculus with 8 samples.

Results

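The 36 genes described here encode the degradative machinery of the lysosome and the transcription factors that switch it on. They were picked by symbol for their known function from a table of 50615 genes. The rule held no measured value, but earlier results of these data were known when it was made. All 36 passed the filter on low counts and were tested among 17625 genes. By role they are 4 factors of the MiT/TFE family, 5 lysosomal membrane proteins, 9 proteases, 7 glycosidases, 5 lipid-degrading enzymes and their activators, and 6 subunits of the proton pump.

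Bone marrow-derived macrophages (BMDMs) arise from marrow precursors in a dish, here over 6 days in 20 ng/ml M-CSF. Ncoa6-KO cells came from *Ncoa6* fl/fl LysM-Cre mice, in which Cre is expressed from the lysozyme 2 locus (*Lyz2*) and removes a floxed part of *Ncoa6* in myeloid cells. Ncoa6-sufficient cells, labelled WT, came from *Ncoa6* fl/fl mice, which carry the same floxed alleles without Cre, so that Cre is present in 1 genotype only. All mice were C57BL/6. Cells stayed in medium alone or received LPS at 100 ng/ml for 4 h followed by monosodium urate (MSU) crystals at 200 µg/ml for 2 h, and each of the 4 groups had 2 poly(A) RNA-seq libraries from different mice. LPS was never given without MSU, so the effects of these agents cannot be told apart.

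Lysosomes digest proteins, sugars and lipids with acid hydrolases, and a vacuolar proton pump (V-ATPase) keeps their interior acidic. TFEB, TFE3, MITF and TFEC are related basic helix-loop-helix factors that bind E-boxes in the promoters of many lysosomal and autophagy genes. When nutrients are plentiful, mTORC1 at the lysosome surface phosphorylates TFEB and TFE3 and holds them in the cytoplasm, with Rag GTPases and folliculin taking part. In macrophages the compartment also processes engulfed material, and crystals that damage it are a known trigger of the NLRP3 inflammasome. Counts of mRNA report neither where these factors are in the cell nor the activity of the enzymes.

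Promoter windows from RefSeq (GRCm38.p6, 250 bases before to 50 after the start of transcription) were available for 30 of the 36 genes. The E-box CACGTG, which reads the same on both strands, stood in a window of 11 of these 30 genes (36.7%), against 8.09% of the 27025 genes with a window. The extended form TCACGTGA, which contains the E-box and is known as the preferred motif of TFEB, stood in 7 of 30 (23.3%), against 1.12% of all genes. These are the 7 genes with the extended form, shown because they are the best matches to a MiT/TFE motif. The 8 letters are in capitals, each stretch is written 5′ to 3′ along the gene, and *Ctsa* and *Gla* hold 2 copies each.
Atp6v0d1 (chr8:105566050-105566079, minus strand): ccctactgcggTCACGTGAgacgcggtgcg
Atp6v1a (chr16:44139373-44139402, minus strand): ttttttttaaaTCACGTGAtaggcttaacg
Cln3 (chr7:126583340-126583369, minus strand): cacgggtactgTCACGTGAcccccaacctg
Ctsa (chr2:164833749-164833778, plus strand): tgagcaaactgTCACGTGAtgcagatgctc
Ctsa (chr2:164833766-164833795, plus strand): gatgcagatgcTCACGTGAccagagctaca
Ctsd (chr7:142387908-142387937, minus strand): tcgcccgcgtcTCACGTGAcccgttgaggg
Gla (chrX:134601215-134601244, minus strand): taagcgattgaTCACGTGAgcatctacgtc
Gla (chrX:134601182-134601211, minus strand): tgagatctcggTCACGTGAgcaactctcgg
Mcoln1 (chr8:3500462-3500491, plus strand): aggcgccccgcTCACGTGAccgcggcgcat

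*Lamp1* had no extended form but 4 plain E-boxes within the 66 bases before its start, the most of any member, shown in capitals.
Lamp1 (chr8:13159095-13159160, plus strand): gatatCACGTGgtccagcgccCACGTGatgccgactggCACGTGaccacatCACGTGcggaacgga
*Ctsc* is shown because it was the only member called between the genotypes. None of the 5 motifs searched was in its window, and the 250 bases before its start follow.
Ctsc (chr7:88277835-88278084, plus strand): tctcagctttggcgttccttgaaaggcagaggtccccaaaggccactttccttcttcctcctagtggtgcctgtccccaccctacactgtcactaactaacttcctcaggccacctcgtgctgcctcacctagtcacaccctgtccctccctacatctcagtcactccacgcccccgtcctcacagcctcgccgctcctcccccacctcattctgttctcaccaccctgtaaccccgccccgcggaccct

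The other motifs were searched on both strands too. The core of the MITF-type M-box, CATGTG, stood in 8 members (26.7%, against 15.9% of all genes). The kB-type motif (GGG, any 2 bases, then TTTCC), of the kind that NF-κB binds, stood in *Tfec* alone (3.33%, against 1.89%). The interferon-type motif (GAAA, any 2 bases, then GAAA) stood in *Ctss* and *Lamp1* (6.67%, against 3.99%). *Tfec* and *Ctss* are shown because both genes rose with LPS + MSU, a choice made after their values were seen, with the motif in capitals.
Tfec (chr6:16898423-16898452, minus strand): ccagagtccaGGAAATGCCCtaatgggtga
Ctss (chr3:95526755-95526784, plus strand): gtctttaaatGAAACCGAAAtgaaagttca
A match is a run of letters and not evidence that a factor binds there.

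**Figure D1:**
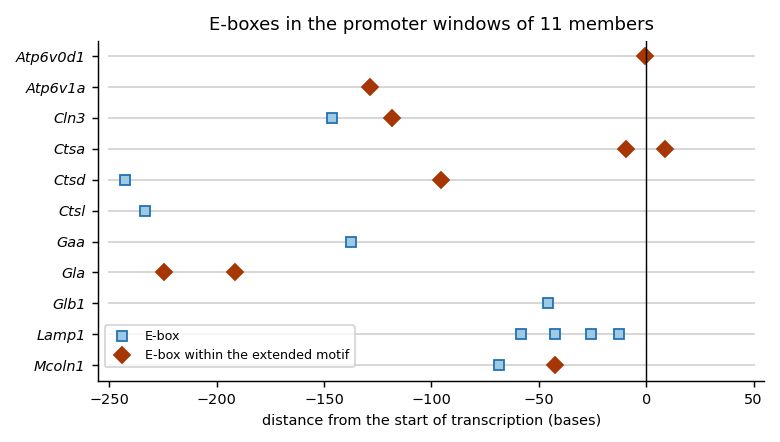
Position of each E-box, by its centre, in the RefSeq promoter windows of the 11 members that hold it, in bases from the start of transcription. Diamonds mark E-boxes inside the extended form and squares the others. *Lamp1* carries 4 squares before its start, and 7 genes carry at least 1 diamond.

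Counts summed to between 25281955 and 33673552 per library. TMM scaling factors lay between 1.231 and 1.286 in medium and between 0.7659 and 0.8293 with LPS + MSU, so the size of a response to the stimulus depends on this scaling. With plain library totals, an alternative chosen after the data were seen, the median log2 fold change of all genes with LPS + MSU moved from -0.12 to -0.78 in Ncoa6-sufficient cells and from -0.07 to -0.71 in Ncoa6-KO cells. *Ncoa6* had 1515 and 1405 normalized counts in Ncoa6-sufficient and 784 and 622 in Ncoa6-KO libraries in medium, and 1297 and 1173 against 563 and 526 with LPS + MSU. The log2 fold changes were -1.05 and -1.18 (adjusted p = 0.00236 and 0.00189 from edgeR), and the call with medium alone was lost without the first Ncoa6-sufficient library with medium (-1.0, adjusted p = 0.0578). All 8 macrophage markers averaged over 50 normalized counts, and T and NK cell and mast cell markers did not pass the filter. The log2 fold changes of all 8 macrophage markers were below 0 in Ncoa6-KO cells under both conditions. Of these 3 were called lower under each condition, against 1.3% of all genes in medium and 1.63% with LPS + MSU. *Lyz2* and *Fcgr1* were called under both, *Cd14* in medium only and *Itgam* with LPS + MSU only. *Lyz2*, which carries Cre in those mice, had 272098 and 209893 normalized counts against 127555 and 111994 with medium alone. The summed level of the neutrophil, dendritic cell, B cell and stromal cell markers was at most 979.5 normalized counts per list in any library. That of the endothelial list ran from 365.3 to 712.3 in medium and from 3063 to 6926 after the stimulus. Most of the endothelial sum was *Kdr*, with 346 to 674 in medium and 2965 to 6679 after the stimulus. *Pecam1* had at most 171.8 and *Cdh5* at most 146.9 in any library. The part of cells other than macrophages in the results was not tested. In bulk libraries fewer cells of a type and less RNA per cell cannot be told apart.

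The response to LPS + MSU exceeded a log2 fold change of 1, up or down, in both genotypes for *Ctsc*, *Tfeb*, *Tfec*, *Mitf*, *Cln3* and *Atp6v0d2*, while most hydrolases were not called. In Ncoa6-sufficient cells 16 of the 36 genes were called, meaning that their adjusted p-value was below 0.05, with 11 higher and 5 lower. The background was high, with 55.2% of all tested genes called, 24.7% higher and 30.5% lower. In Ncoa6-KO cells 15 were called, 11 higher and 4 lower, against 53.1% of all genes, 25.2% higher and 27.9% lower. Of these calls 15 were shared between the genotypes, all in the same direction, and 20 genes were called in neither. Asking also for a log2 fold change over 1 in either direction left 6 and 7 members, against 32.5% and 30.3% of all genes. Medium and stimulated libraries did not overlap for 25 members in Ncoa6-sufficient cells, 18 higher and 7 lower, against 78.5% of all genes, 35.1% higher and 43.5% lower. In Ncoa6-KO cells this held for 23, 18 higher and 5 lower, against 76.5%, 35.4% higher and 41.1% lower. At an unadjusted p-value under 0.05 there were 16 and 17 members, against 59.8% and 58.0% of all genes. The median log2 fold change of the 36 genes was 0.10 and 0.19, beside medians of -0.12 and -0.07 over all tested genes. With library totals the median of the 36 fell with that of all genes, and its distance from it was 0.20 and 0.26, against 0.21 and 0.26 with TMM. The calls then became 5 higher and 26 lower in Ncoa6-sufficient and 6 and 25 in Ncoa6-KO cells. DESeq2 instead called 15 higher and 3 lower and then 16 and 4. Of all genes library totals called 12151 and 11853, and DESeq2 8498 and 8194.

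**Figure D2:**
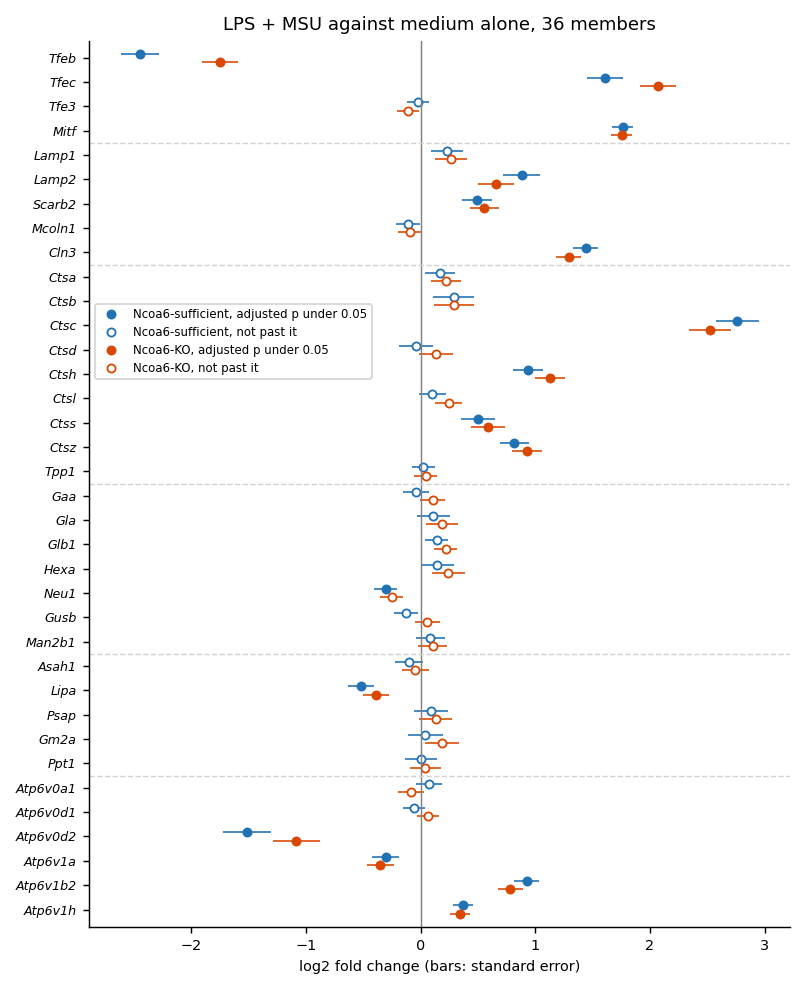
Log2 fold change of the 36 genes between LPS + MSU and medium alone (x axis) in Ncoa6-sufficient (blue) and Ncoa6-KO (orange) BMDMs, with standard errors from edgeR, 2 libraries per group. Filled points passed an adjusted p-value of 0.05, and dashed lines part the roles. *Ctsc* lies farthest right at 2.76 and 2.52, *Tfeb* farthest left at -2.45 and -1.74, and with this TMM scaling most glycosidases and lipid enzymes lie near 0.

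The MiT/TFE factors moved apart. *Tfeb* (ENSMUSG00000023990, chr17:47737030-47792419, plus strand, GRCm38) encodes the factor best known for driving lysosome formation. It had 862 and 869 normalized counts (scaled to an average effective library size) in Ncoa6-sufficient and 788 and 677 in Ncoa6-KO libraries with medium alone. With LPS + MSU it had 152 and 165 in Ncoa6-sufficient and 259 and 178 in Ncoa6-KO libraries. Every stimulated library lay below every library with medium alone, and the log2 fold change was -2.45 ± 0.16 (SE, adjusted p = 2.3e-07) in Ncoa6-sufficient and -1.74 ± 0.16 (SE, adjusted p = 2.86e-06) in Ncoa6-KO cells. All standard errors and adjusted p-values here and below are from edgeR's quasi-likelihood test.

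*Mitf*, the family member known for its part in melanocytes and osteoclasts, went the other way. It had 1036 and 1005 normalized counts in Ncoa6-sufficient and 1035 and 941 in Ncoa6-KO libraries in medium, and 3380 and 3538 against 3284 and 3375 with LPS + MSU. These groups did not overlap between conditions, and the log2 fold changes were 1.76 ± 0.09 and 1.75 ± 0.09 (SE, adjusted p = 2.85e-08 and 2.98e-08). *Tfec* (ENSMUSG00000029553, chr6:16833373-16898441, minus strand), a family member largely found in macrophages, had 712 and 748 in Ncoa6-sufficient and 684 and 479 in Ncoa6-KO libraries with medium alone. It had 1976 and 2483 and then 2535 and 2359 with LPS + MSU, a log2 fold change of 1.61 ± 0.16 and 2.07 ± 0.16 (SE, adjusted p = 4.9e-06 and 7.56e-07). With library totals the rises of *Mitf* and *Tfec* were smaller but kept their call, the lowest being 0.94 for *Tfec* in Ncoa6-sufficient cells. *Tfe3*, close to *Tfeb* in function, had 2962, 2850, 2622 and 2271 in medium and 2918, 2822, 2193 and 2356 with LPS + MSU, in the order Ncoa6-sufficient then Ncoa6-KO. Its log2 fold changes of -0.02 ± 0.10 and -0.11 ± 0.10 did not pass the test.

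**Figure D3:**
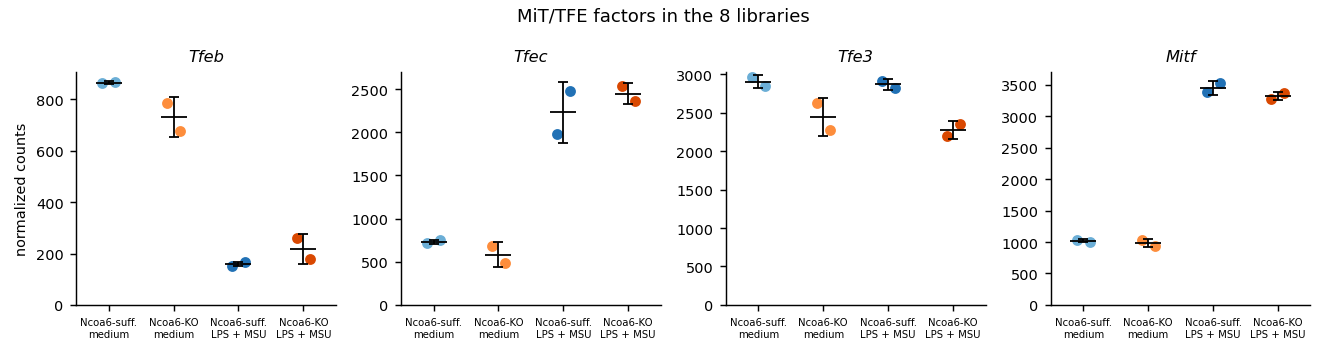
Normalized counts (linear axis from 0) of the 4 MiT/TFE factors in the 8 libraries, as points, with the mean (long bar) and SD of the 2 libraries of each group. *Tfeb* fell from between 677 and 869 to between 152 and 259, *Tfec* and *Mitf* rose, and *Tfe3* stayed between 2193 and 2962.

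To compare genes within a library, levels were scaled by the merged length of all annotated exons. This length need not be that of the transcripts present. On this scale *Tfeb* made up between 19.5% and 20.25% of the summed level of the 4 factors in medium. With LPS + MSU it made up between 2.16% and 3.61%. *Tfe3* went from between 39.8% and 41.7% to between 18.7% and 25.4%. The share of *Mitf* went from between 21.4% and 25.2% to between 41.9% and 44.0%, and that of *Tfec* from between 14.2% and 17.7% to between 28.5% and 35.8%. On this scale *Tfe3* ranked first of the 4 in every library with medium alone, and *Mitf* in every library with LPS + MSU. Counts before division by length gave the same first places. Ratios within a library do not depend on how libraries are scaled, but they do depend on the lengths used.

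Among the membrane proteins 3 of 5 rose in both genotypes and none fell. *Cln3*, mutated in juvenile Batten disease, had 2402 and 2372 normalized counts in Ncoa6-sufficient and 2562 and 2159 in Ncoa6-KO libraries with medium alone. It had 6243 and 6696 and then 6047 and 5504 with LPS + MSU, log2 fold changes of 1.44 ± 0.11 and 1.29 ± 0.11 (SE, adjusted p = 5.62e-07 and 1.46e-06). *Apobr*, which lies on the opposite strand over *Cln3*, had a mean of 7566 counts. The libraries were stranded, but the study's methods do not say whether the counting used the strand. *Lamp2*, a major glycoprotein of the lysosomal membrane needed for chaperone-mediated autophagy, had 18454 and 17948 with medium and 36543 and 30492 with LPS + MSU in Ncoa6-sufficient cells. Its log2 fold changes were 0.88 ± 0.16 and 0.65 ± 0.16 (SE, adjusted p = 0.000587 and 0.00445), and the second was lost without the first Ncoa6-KO library with LPS + MSU (0.44, adjusted p = 0.0604). *Scarb2*, the receptor that carries glucocerebrosidase to lysosomes, rose by a log2 fold change of 0.49 and 0.56, which turned to -0.18 and -0.08 with library totals. *Lamp1*, with its 4 E-boxes, changed by 0.23 and 0.27 (adjusted p = 0.190 and 0.132), and *Mcoln1*, the calcium channel TRPML1, by -0.11 and -0.09, none of them called. The rise of *Lamp2* was not called with library totals (0.21 and 0.02).

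Of the 9 proteases 4 rose in both genotypes and none fell. *Ctsc* (ENSMUSG00000030560, chr7:88278085-88310888, plus strand) encodes cathepsin C, which activates serine proteases of granules, and had the largest rise of the 36 genes. It had 6392 and 5761 normalized counts in Ncoa6-sufficient and 4169 and 3744 in Ncoa6-KO libraries in medium, and 49393 and 32871 against 24730 and 20714 with LPS + MSU. The log2 fold changes were 2.76 ± 0.19 and 2.52 ± 0.18 (SE, adjusted p = 2.4e-07 and 5.03e-07). Its level per kilobase of exon rose from rank 24 to rank 9 among the 36 genes in Ncoa6-sufficient and from rank 27 to rank 13 in Ncoa6-KO cells.

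*Ctsh*, an aminopeptidase, had 2068 and 1758 normalized counts in medium and 3883 and 3451 with LPS + MSU in Ncoa6-sufficient cells, and 1922 and 1618 against 4220 and 3526 in Ncoa6-KO cells (log2 fold changes 0.94 ± 0.13 and 1.13 ± 0.13). *Ctsz*, a carboxypeptidase, changed by 0.82 ± 0.13 and 0.93 ± 0.13. With library totals the calls of *Ctsh* and *Ctsz* in Ncoa6-sufficient cells were lost (0.27 and 0.15). *Ctss*, which trims the invariant chain in antigen presentation, had 63150 and 53530 against 88076 and 76628 in Ncoa6-sufficient cells. Its log2 fold changes were 0.50 ± 0.15 and 0.58 ± 0.15 (SE, adjusted p = 0.0145 and 0.00626). The first call for *Ctss* was lost without the second Ncoa6-sufficient library with medium (0.39) or the first with LPS + MSU (0.44), the second without the first Ncoa6-KO library with LPS + MSU (0.46), and both values turned to -0.17 and -0.05 with library totals. The other 5 proteases, *Ctsa*, *Ctsb*, *Ctsd*, *Ctsl* and *Tpp1*, had log2 fold changes from -0.04 to 0.29 in Ncoa6-sufficient and from 0.05 to 0.29 in Ncoa6-KO cells, none called.

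With TMM scaling, 1 of the 7 glycosidases and 1 of the 5 lipid-degrading genes were called. The glycosidase was the sialidase *Neu1*, with 4376 and 4256 normalized counts in medium and 3475 and 3530 with LPS + MSU in Ncoa6-sufficient cells. Its log2 fold change of -0.30 ± 0.10 (SE, adjusted p = 0.0238) compares with -0.25 ± 0.10 (SE, adjusted p = 0.0553) in Ncoa6-KO cells. The *Neu1* call was lost when any of 6 libraries was left out, all but those of Ncoa6-KO cells with medium alone (-0.32 to -0.24), and with DESeq2's size factors (-0.19), while library totals gave -0.97 (adjusted p = 3.2e-06). *Gaa*, *Gla*, *Glb1*, *Hexa*, *Gusb* and *Man2b1*, which digest glycogen, glycolipids and glycan chains, had log2 fold changes from -0.13 to 0.15 in Ncoa6-sufficient and from 0.06 to 0.24 in Ncoa6-KO cells.

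*Lipa*, the acid lipase that frees cholesterol and fatty acids from engulfed lipoproteins, had 60356 and 59728 normalized counts in medium and 41622 and 42133 with LPS + MSU in Ncoa6-sufficient cells. In Ncoa6-KO cells it had 71026 and 62389 against 51607 and 50312. The log2 fold changes were -0.52 ± 0.12 and -0.39 ± 0.12 (SE, adjusted p = 0.00255 and 0.0146), and the second was lost without the first Ncoa6-KO library with medium (-0.29) or either with LPS + MSU (-0.41 and -0.36). With library totals *Lipa* stood at -1.19 and -1.02, both called. The ceramidase *Asah1*, the sphingolipid activators *Psap* and *Gm2a* and the thioesterase *Ppt1* had log2 fold changes from -0.10 to 0.19 over both genotypes, and none was called.

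Subunits of the proton pump split. In the V1 sector, which hydrolyses ATP, *Atp6v1b2* had 12652 and 11821 normalized counts in medium and 24598 and 21840 with LPS + MSU in Ncoa6-sufficient cells (log2 fold change 0.92 ± 0.11, adjusted p = 2.4e-05), and changed by 0.78 ± 0.11 in Ncoa6-KO cells, where library totals gave 0.15 and no call. *Atp6v1h*, a regulatory subunit, changed by 0.37 and 0.34, which turned to -0.30 and -0.29 with library totals, past the test in that direction (adjusted p = 0.0106 and 0.0129). *Atp6v1a*, the catalytic subunit, changed by -0.30 ± 0.12 and -0.35 ± 0.12 (adjusted p = 0.0451 and 0.0257). In Ncoa6-sufficient cells the call of *Atp6v1a* was lost without any of the same 6 libraries as for *Neu1* (-0.36 to -0.19), with DESeq2 or its size factors (-0.19 each), with filterByExpr (-0.27) and with the 4 libraries compared alone (-0.25), and in Ncoa6-KO cells without the first library with medium (-0.22) or either with LPS + MSU (-0.33 and -0.37), with DESeq2's size factors (-0.29) and with the 4 libraries alone (-0.34). Library totals gave -0.98 for *Atp6v1a* in both genotypes, called in each.

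In the membrane-bound V0 sector the 2 isoforms of the d subunit differed. *Atp6v0d2* (ENSMUSG00000028238, chr4:19876841-19922605, minus strand), the isoform typical of osteoclasts, had 1248 and 896 normalized counts in Ncoa6-sufficient and 1626 and 1139 in Ncoa6-KO libraries with medium alone. With LPS + MSU it had 410 and 343 and then 740 and 568, log2 fold changes of -1.51 ± 0.21 and -1.08 ± 0.20 (SE, adjusted p = 9.33e-05 and 0.000852). *Atp6v0d1*, the common isoform, changed by -0.06 and 0.07, and *Atp6v0a1* by 0.08 and -0.08, neither called.

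Levels differed far more between genes than between conditions. Per kilobase of exon, *Ctsd*, *Psap*, *Ctsb* and *Ctss* held ranks 1 to 4 in all 4 groups. Before division by length *Ctsb* had more counts than *Ctsd* in every library. *Ctsd*, *Ctsb* and *Psap* together made up between 65.9% and 70.5% of the counts of the 36 genes in each library. As a share of all counts of a library, which uses no scaling factor, the 36 genes took 7.47% and 6.92% in Ncoa6-sufficient and 8.46% and 7.43% in Ncoa6-KO libraries with medium alone. With LPS + MSU they took 5.27% and 5.04% in Ncoa6-sufficient and 6.22% and 5.76% in Ncoa6-KO libraries. The stimulated libraries all lay below the libraries with medium alone, and the Ncoa6-KO libraries lay above the Ncoa6-sufficient ones with LPS + MSU but overlapped them with medium alone.

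Loss of *Ncoa6* left nearly all of the 36 genes without a called difference. With medium alone 0 were called in the main edgeR fit, where 1.88% of all genes were (0.573% higher and 1.3% lower). DESeq2 called 1. At an unadjusted p-value under 0.05 in the main fit there were 7, against 12.8% of all genes. With LPS + MSU 1 was called, where 3.59% of all genes were (1.96% higher and 1.63% lower), and 10 had an unadjusted p-value under 0.05, against 17.4% of all genes. A log2 fold change over 1 beside the adjusted p-value was met by 0 members under each condition, against 0.834% and 1.03% of all genes. The median log2 fold change of the 36 was 0.01 and 0.06, beside -0.03 and 0.00 over all genes. The genotypes did not overlap for 13 genes with medium alone, 7 higher and 6 lower in Ncoa6-KO cells, and for 17 with LPS + MSU, 12 higher and 5 lower. Of all genes 43.1% did not overlap with medium alone (18.6% higher and 24.5% lower) and 47.4% with LPS + MSU (24.7% and 22.7%).

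The called gene was *Ctsc*, lower in Ncoa6-KO cells with LPS + MSU at 24730 and 20714 against 49393 and 32871 normalized counts, a log2 fold change of -0.86 ± 0.18 (SE, adjusted p = 0.0262). The genotypes did not overlap under either condition, but the Ncoa6-sufficient libraries with LPS + MSU were themselves far apart. Without the first of them the value was -0.54 (adjusted p = 0.198). The call was also lost without the second Ncoa6-KO library with LPS + MSU (-0.74, adjusted p = 0.244), without the first (-1.01, adjusted p = 0.0521), and without either Ncoa6-sufficient library with medium (-0.86, adjusted p = 0.0541 and 0.0527). A fit to the 4 libraries compared alone did not call *Ctsc* either (-0.85, adjusted p = 0.0692). With medium alone *Ctsc* stood at -0.62 ± 0.18 (SE, adjusted p = 0.121) in the main fit. It was called by DESeq2 (-0.60, adjusted p = 0.0140) and by edgeR on the 4 libraries compared alone (-0.60, adjusted p = 0.0412). In edgeR no filter on low counts called it (-0.62, adjusted p = 2.8e-05), as did the replicate number as a block across all groups or within each genotype (-0.62 each, adjusted p = 0.00274 and 3.7e-06). Such a block takes the spread between replicate numbers out of the error. If a number marks a mouse, p-values for a knockout effect from these fits, here and below, leave out spread between mice. *Ctsc* was not called in medium with limma-voom, filterByExpr, library totals or DESeq2's size factors.

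Genes on the other side did not reach the limit in the main edgeR fit. *Ctsd* (ENSMUSG00000007891, chr7:142375911-142388038, minus strand), the aspartic protease cathepsin D and the most abundant of the 36 mRNAs per kilobase, had 365767 and 330784 normalized counts in Ncoa6-sufficient and 497025 and 493205 in Ncoa6-KO libraries with LPS + MSU. With medium alone it had 384781 and 330686 against 479300 and 423426. The genotypes did not overlap under either condition, and the log2 fold changes were 0.34 ± 0.15 (SE, adjusted p = 0.370) in medium and 0.51 ± 0.15 (SE, adjusted p = 0.0979) with LPS + MSU. The latter passed with DESeq2 (0.47, adjusted p = 0.00219) and with limma-voom (0.51, adjusted p = 0.0485). In edgeR that value passed with no filter on low counts (0.51, adjusted p = 0.00172) and with library totals (0.58, adjusted p = 0.036). With the replicate number as a block across all groups or within each genotype it passed too (0.51 each, adjusted p = 0.00572 and 8.5e-07). It did not pass with DESeq2's size factors, filterByExpr or the 4 libraries compared alone.

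*Atp6v0d2* stood at 0.37 ± 0.19 (SE, adjusted p = 0.485) in medium and 0.80 ± 0.22 (SE, adjusted p = 0.0767) with LPS + MSU, where its genotypes did not overlap. The latter passed with DESeq2 (0.76, adjusted p = 0.0147) and with only the 4 libraries compared (0.80, adjusted p = 0.0449). It also passed in edgeR with no filter on low counts (0.80, adjusted p = 8.5e-08) and with library totals (0.87, adjusted p = 0.0414). Both fits with the replicate number as a block called it (0.79 each, adjusted p = 0.000253 and 2.1e-06). So did the fits without the first or the second Ncoa6-KO library with medium (0.80 each). It did not pass with limma-voom, filterByExpr or DESeq2's size factors. Among 6 tested osteoclast markers of 8 listed, *Ctsk* and *Itgb3* were higher in Ncoa6-KO cells under both conditions, and *Dcstamp* and *Mmp9* were lower with medium alone. Of the 6, 2 lay above 0 and 4 below 0 in Ncoa6-KO cells under each condition. *Acp5* at -0.97 in medium and *Dcstamp* at -1.01 with LPS + MSU were not called. The summed level of the list was 1578 and 1487 normalized counts in Ncoa6-sufficient and 2234 and 2280 in Ncoa6-KO libraries in medium. With LPS + MSU it was 2461 and 2224 against 2609 and 2562. *Itgb3* alone had 555 and 597 against 1439 and 1508 in medium, and 125 and 150 against 305 and 507 with LPS + MSU. *Calcr* and *Oscar* did not pass the filter, *Ocstamp* had at most 12.5, and the part of such cells in the *Atp6v0d2* values was not tested.

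**Figure D4:**
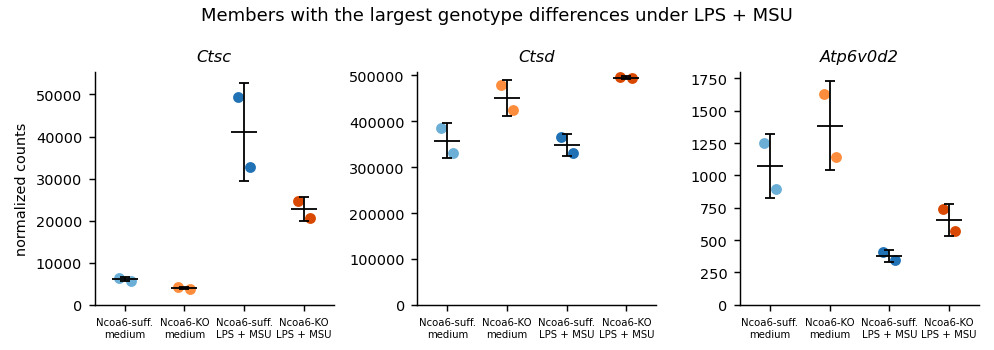
Normalized counts (linear axis from 0) of *Ctsc*, *Ctsd* and *Atp6v0d2* in the 8 libraries, as points, with the mean and SD of the 2 libraries of each group. *Ctsc* was lower in Ncoa6-KO cells, with 32871 and 49393 in the Ncoa6-sufficient libraries with LPS + MSU, and *Ctsd* had at least 423426 in every Ncoa6-KO library and at most 384781 in every other.

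For the MiT/TFE factors the values between genotypes were small. *Tfe3* stood at -0.25 ± 0.10 with medium alone and -0.34 ± 0.10 with LPS + MSU (SE, adjusted p = 0.286 and 0.0964), lower in both Ncoa6-KO libraries each time. DESeq2 called the second (-0.37, adjusted p = 0.0339), as did edgeR with no filter on low counts (-0.34, adjusted p = 0.0490). Both fits with the replicate number as a block called it too (-0.33 each, adjusted p = 0.0291 and 0.00453). The block within each genotype also called the first (-0.25, adjusted p = 0.0384). No other alternative fit to all libraries or to the 4 compared called either. *Tfeb* stood at -0.24 in medium and 0.46 with LPS + MSU (adjusted p = 0.545 and 0.211), *Tfec* at -0.32 and 0.13, and *Mitf* at -0.05 and -0.06. The difference between both knockout effects (the interaction) was called for none of the 36 genes and for 0.0% of all genes in the main edgeR fit. *Tfeb* was the only member with an unadjusted p-value under 0.05 there, against 1045 of all genes (5.93%), and DESeq2 called no member. Signs of both knockout effects matched in 23 of the 36 genes (63.9%), against 64.1% of all genes, and these effects share no library.

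Set beside their promoters, log2 fold changes with LPS + MSU in Ncoa6-sufficient cells had a median of 0.10 over the 11 members with an E-box, against 0.09 for the 19 without it. Between genotypes with LPS + MSU the medians were 0.19 and 0.02, with 10 of 11 and 11 of 19 above 0. With medium alone they were 0.08 and -0.05, with 7 of 11 and 7 of 19 above 0. These are descriptions of genes chosen for function, with no test.

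Other genes of the compartment, 123 listed and 118 tested, were compared between genotypes in the same fit. Their lists were chosen with earlier results of these data known, so their share of calls is not an independent test. With LPS + MSU 11 of 118 were called (9.32%), 9 higher and 2 lower, beside a background of 3.59%. DESeq2 also called 9 higher and 2 lower, but limma-voom called 5 and 1, without *Rragd*, *Map1lc3a*, *Gabarapl1*, *Ctsf* and *Cd164* (adjusted p = 0.0510 to 0.0867). With medium alone 4 of 118 were called (3.39%), 3 higher and 1 lower, beside 1.88%, where DESeq2 called 4 and 2, no filter on low counts 6 and 3, and the 4 libraries compared alone 2 and 0. Of all genes DESeq2 called 849 and limma-voom 439 with LPS + MSU. In medium DESeq2 called 496, no filter 1152 and the 4 libraries compared alone 247. The median log2 fold change of the 118 was 0.04 in medium and 0.09 with LPS + MSU.

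Of 20 autophagy genes 4 rose and none fell in Ncoa6-KO cells with LPS + MSU. *Sqstm1* encodes p62, the receptor that brings ubiquitinated cargo to autophagosomes. It had 16045 and 15267 normalized counts in Ncoa6-sufficient and 19560 and 16781 in Ncoa6-KO libraries in medium, and 35842 and 45912 against 80802 and 103486 with LPS + MSU. Both Ncoa6-KO libraries lay above both Ncoa6-sufficient ones under each condition, with log2 fold changes of 0.21 ± 0.16 (SE, adjusted p = 0.661) and 1.17 ± 0.16 (SE, adjusted p = 0.00518), and the difference between them, 0.96, did not pass in edgeR (adjusted p = 0.437). That difference was called at about the same size by DESeq2 (0.90, adjusted p = 0.00762) and by edgeR with no filter on low counts (0.96, adjusted p = 1.7e-05), and not with limma-voom (0.96, adjusted p = 0.446). *Wipi1*, which binds the phosphoinositide of forming autophagosomes, had 154 and 160 against 273 and 281 with LPS + MSU (log2 fold change 0.82 ± 0.12, adjusted p = 0.00671). *Map1lc3a* and *Gabarapl1*, of the ATG8 family that coats autophagosomes, rose by 0.76 and 0.57 (adjusted p = 0.0422 and 0.0377).

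Among the genes that control MiT/TFE factors, *Rragd*, which encodes the RagD GTPase and is itself a known MiT/TFE target, had 770 and 810 normalized counts in Ncoa6-sufficient and 1298 and 1115 in Ncoa6-KO libraries with medium alone. With LPS + MSU it had 89 and 88 against 142 and 193. It was called under both conditions, with log2 fold changes of 0.61 ± 0.12 and 0.92 ± 0.18 (SE, adjusted p = 0.0363 and 0.0214). *Flcn*, which encodes folliculin, had 1128 and 1176 against 1639 and 1563 with LPS + MSU (0.47 ± 0.10, adjusted p = 0.0241), while with medium alone its value was 0.05.

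In the remaining lists *Ctsk*, the collagen-degrading protease of osteoclasts, was higher by log2 values of 0.68 and 0.80 (adjusted p = 0.0213 and 0.00901). *Hgsnat*, an acetyltransferase of heparan sulfate breakdown, was lower under both conditions, with log2 fold changes of -0.48 and -0.53 (adjusted p = 0.0474 and 0.0223). *Laptm4b*, a lysosomal membrane protein, rose by 0.70 with medium alone (adjusted p = 0.0398). With LPS + MSU the protease *Ctsf* and the sorting receptor *Sort1* rose by 0.70 and 0.55, and the membrane sialomucin *Cd164* stood at -0.78 (adjusted p = 0.0363, 0.0241 and 0.0447).

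The number of calls fell when libraries were left out, which leaves a group of 1. Without the first Ncoa6-sufficient library with LPS + MSU, or without the second Ncoa6-KO library, 0 of the 118 genes were called, where 49 and 63 of all genes still were. *Sqstm1* was then at 0.99 and 0.98 (adjusted p = 0.0629 and 0.0641), *Wipi1* at 0.78 and 0.80, *Rragd* at 0.91 and 0.68, and *Flcn* at 0.43 and 0.51, so the differences kept their direction in these genes. The calls were 4 higher and 1 lower without the second Ncoa6-sufficient library with LPS + MSU, 5 and 2 without the first Ncoa6-KO library, and 6 and 1 without the first Ncoa6-sufficient library with medium. With medium alone, 0 of the 118 were called without either Ncoa6-sufficient library of that condition, 0 higher and 2 lower without the first Ncoa6-KO library, and 1 and 0 without the second.

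**Figure D5:**
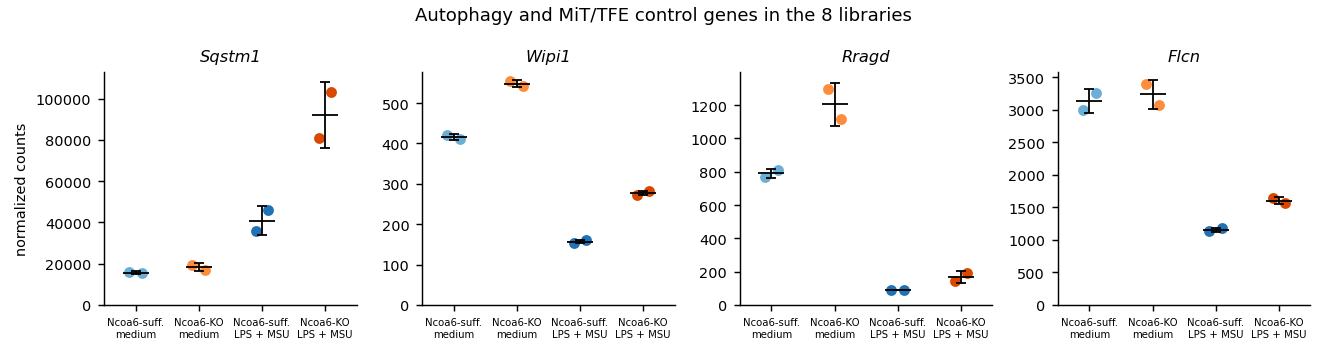
Normalized counts (linear axis from 0) of *Sqstm1*, *Wipi1*, *Rragd* and *Flcn* in the 8 libraries, as points, with the mean and SD of the 2 libraries of each group. *Sqstm1* rose with LPS + MSU and the other 3 fell, and in stimulated cells both Ncoa6-KO libraries lay above both Ncoa6-sufficient ones for all 4 genes.

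With LPS + MSU 35 of the 118 genes rose and 39 fell in Ncoa6-sufficient and 39 rose and 40 fell in Ncoa6-KO cells. Of all tested genes 24.7% rose and 30.5% fell in Ncoa6-sufficient and 25.2% and 27.9% in Ncoa6-KO cells. The counts of the 118 became 10 and 88 and then 12 and 88 with library totals, and 44 and 34 and then 45 and 33 with DESeq2. Of 14 other pump genes 7 rose and 1 fell in Ncoa6-sufficient and 9 rose and 1 fell in Ncoa6-KO cells. *Tcirg1*, the pump subunit a3 of osteoclast and phagocyte membranes, rose by 1.11 and 1.20, and *Atp6v1d* by 1.15 and 0.88. With library totals this list held 3 risen and 8 fallen genes and then 2 and 7.

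Of the 33 other hydrolases and cofactors 11 rose and 9 fell in Ncoa6-sufficient cells. *Sgsh*, a sulfatase of heparan sulfate breakdown, had 2799 and 2621 normalized counts in medium and 337 and 313 with LPS + MSU, a log2 fold change of -3.06, and the hyaluronidase *Hyal1* had 732 and 680 against 68 and 110, a change of -2.99. *Acp5*, the tartrate-resistant phosphatase, rose from 114 and 74 to 684 and 554, a change of 2.71. In Ncoa6-KO cells the log2 fold changes of *Sgsh*, *Hyal1* and *Acp5* were -2.74, -2.46 and 3.42, each called in the same direction.

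Among 22 other membrane proteins 7 rose and 8 fell, with the chloride-proton exchanger *Clcn7* at 1.84 and 1.87 and the cation channel *Tpcn1* at -1.91 and -1.64. Of 10 sorting genes 2 rose and 3 fell, and *M6pr*, the mannose-6-phosphate receptor that delivers new hydrolases, stood at 1.26 and 1.29. Of 19 genes of mTORC1 and folliculin 3 rose and 8 fell, and of 20 autophagy genes 5 rose and 10 fell. *Rragd* stood at -3.16 and -2.85, *Rragb* at -2.31 and -2.30, *Flcn* at -1.44 and -1.01, and the kinase *Ulk1*, which starts autophagy, at -1.71 and -1.65. *Sqstm1* went against them, at 1.38 in Ncoa6-sufficient and 2.34 in Ncoa6-KO cells.
With library totals the risen and fallen genes in Ncoa6-sufficient cells were 1 and 23 of the other hydrolases, 3 and 16 of the membrane proteins, 1 and 8 of the sorting genes, 0 and 17 of the mTORC1 and folliculin genes, and 2 and 16 of the autophagy genes.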

How the data were processed

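RNA of 8 BMDM libraries was measured, 2 per genotype and condition. Per the study's methods and processing notes, the authors made stranded poly(A) libraries, aligned paired reads with STAR 2.7.3a to GRCm38 and estimated counts with RSEM 1.3.3. The deposited values are these expected counts per gene, not normalized. Here each value was rounded, and a gene was kept if it reached 10 counts summed over the 8 libraries. edgeR 4.0.16 (R 4.3.3) fitted all 4 groups by its quasi-likelihood method after TMM scaling, which left 4 residual degrees of freedom (median biological coefficient of variation 0.114). Genes whose p-value, adjusted by Benjamini-Hochberg over all tested genes, was below 0.05 were called. Positions and exon lengths came from a GENCODE annotation of GRCm38. The code was tested on simulated data.

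The members, the other gene lists and the tests were chosen with earlier results of these data known. All 36 members were to be named, and from the other lists every gene called between genotypes and at most 3 called genes per direction and response. Alternatives were DESeq2 1.42.0, DESeq2's size factors in edgeR, limma-voom (limma 3.58.1), filterByExpr, no filter, the replicate number as a block, a fit to the 4 libraries compared alone, omission of each library in turn, and a log2 fold change over 1. Library totals without TMM were added after the data were seen.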

Additional observations from a re-analysis of the deposited data

Results flagged for a closer look

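*Tfeb* lay lower in both Ncoa6-KO libraries than in both Ncoa6-sufficient libraries with medium alone (788 and 677 against 862 and 869 normalized counts) and higher in both with LPS + MSU (259 and 178 against 152 and 165). The difference between these knockout effects was a log2 value of 0.70 ± 0.23 (SE, unadjusted p = 0.0106, adjusted p = 0.647 from edgeR), which did not pass over all genes in the fit without a replicate block. It ran from 0.35 to 0.90 as single libraries were left out.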

How the results depend on the processing

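In the responses of Ncoa6-sufficient and Ncoa6-KO cells 16 and 15 members were called. Library totals gave 31 and 31, and a log2 fold change over 1 left 6 and 7. Of all genes library totals called 12151 and 11853 and DESeq2 8498 and 8194, against 9737 and 9359 in the main fit. Directions called higher and lower were 11 and 5 and 11 and 4, against 5 and 26 and 6 and 25 with library totals and 15 and 3 and 16 and 4 with DESeq2. *Scarb2*, *Ctss* and *Atp6v1h* turned to -0.18, -0.17 and -0.30 in Ncoa6-sufficient and -0.0765, -0.0494 and -0.29 in Ncoa6-KO cells with library totals. Leaving out libraries gave 13 to 16 and 11 to 16 calls. Between genotypes with medium alone, against 0 members called, DESeq2 called 1, no filter 2 and only the 4 libraries compared 1, and leaving out libraries gave 0 each time. With LPS + MSU, against 1, library totals called 3, DESeq2 4, limma-voom 2 and no filter 4, a log2 fold change over 1 left 0, and leaving out libraries gave 0 to 2. Of all genes the main fit called 331 in medium and 632 with LPS + MSU, DESeq2 496 and 849, and no filter 1152 and 1611 of 24645 tested. With LPS + MSU library totals called 698 and limma-voom 439 of all genes. Only the 4 libraries compared called 247 in medium. Of the values of single genes and of the members' medians under an alternative, 1012 stayed the same. For a gene this means that its direction and its side of the threshold held. For a median it means a shift smaller than the SD of the members' median level between libraries of a group. Among genes, 134 values kept the direction but lost the call, 42 gained one and 6 turned, as given above. Beyond that SD, 4 medians moved.

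The labels give the same replicate numbers, 1 and 2, to each group, but nothing says that a number marks a mouse or a day. Over 11219 genes, deviations of same-numbered libraries from their group means correlated at 0.283 and 0.353 between conditions within a genotype. Between genotypes they correlated at 0.0418 to 0.193, with 2 pairs in each comparison. Whether same-numbered libraries of a genotype came from the same mouse was not tested, and the main fit used no replicate block. If they did, p-values of the blocked fits do not measure a knockout effect against the spread between mice. With the replicate number as a block across all groups, 3 members were called between genotypes in medium and 4 in stimulated cells. Of all 17625 tested genes this block called 1023 and 1532, against 331 and 632 in the main fit. With the block within each genotype 9 and 12 members were called, and 24 in the response of Ncoa6-KO cells. For the interaction it called 2, *Tfeb* (0.69, adjusted p = 0.0164) and *Tfec*, against 0 without it. Of all genes this block called 1893 and 2594 between genotypes, 10359 in the response of Ncoa6-KO cells and 444 for the interaction. Of the 118 other genes, 14 higher and 3 lower were called between genotypes with LPS + MSU under the first block and 25 and 7 under the second, and 8 and 7 and then 12 and 10 in medium. The interaction of *Sqstm1* was called under both (0.95 and 0.96, adjusted p = 0.0381 and 9.0e-05).

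With 2 libraries per group, a library left out leaves a group of 1, assumed to vary like the other groups. An exact permutation test of 2 against 2 libraries cannot reach 0.05, so every p-value rests on a spread pooled over genes and groups.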
